A study of Mus musculus with 8 samples.

Results

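The growth hormone (GH) and insulin-like growth factor (IGF) axis was followed through the chromatin of 10 genes: Ghr, Stat5a, Stat5b, Socs2, Cish, Igf1, Igfals, Igfbp1, Igfbp2 and Igfbp4. Their members were the accessible regions that overlapped each gene body or the 20 kb on either side of it, and they came to 316 of the 315767 regions that were listed in at least 1 library. Of the 316 regions, 28 lay within 1 kb of an annotated transcription start site (TSS) of a member and were called promoter regions, and the remaining 288 were called distal. The windows of Stat5a and Stat5b overlap on chromosome 11, and 8 regions counted for both genes. A further 12 distal regions were at the same time the promoter of a neighboring coding gene.

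Accessibility was measured by bulk ATAC-Seq, an assay in which the transposase Tn5 cuts open DNA, in hepatocytes that had been freed from C57BL/6 mouse liver by collagenase perfusion. The labels give an age of 10 to 12 weeks and a normal diet, and name no altered gene. There were 2 libraries from undamaged liver (0 h) and 2 from each of 48, 72 and 96 h after PHx, that is partial hepatectomy, the surgical removal of most of the liver. All mice were male according to the study's methods. The labels name no sham-operated group, so surgery and regeneration cannot be told apart, and they do not tie the libraries to mice. The study describes biological replicates from separate hepatocyte preparations for undamaged and early regenerating liver, more of them than the libraries analysed here, and where libraries did not come from separate mice the spread between them is technical. In each library every distinct interval was ranked by the peak caller's −log10 p, with rank 1 the strongest, and a region took the rank of its strongest interval. Ranks below are given for replicates 1 and 2 in that order, with the time point in parentheses.

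Growth hormone from the pituitary binds the growth hormone receptor on hepatocytes and activates the kinase JAK2, which phosphorylates the transcription factors STAT5A and STAT5B. These bind palindromic TTCNNNGAA sequences and drive Igf1, the circulating growth factor for which the liver is the main source, and Igfals, the subunit that keeps IGF-1 in a long-lived complex in serum. STAT5 also drives Socs2 and Cish, whose products feed back on receptor signaling. The binding proteins IGFBP1, IGFBP2 and IGFBP4 hold IGFs away from their receptor, and IGFBP1 is known as a hepatocyte product under tight control by insulin.

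The lists held 105206 to 154577 distinct intervals per library, and their read depth is unknown. The −log10 p reached at rank 50000 was 15.2 and 9.96 (0 h), 8.05 and 8.62 (48 h), 14.8 and 14.0 (72 h) and 14.5 and 8.29 (96 h). The median fold enrichment of the 50000 strongest intervals was lowest at 48 h, at 6.70 and 7.21, against 7.97 to 9.35 in the other 6 libraries. Promoters of 7 hepatocyte genes were listed in 4 to 7 of 7 cases per library, and 5, 4 and 3 of the 7 ranked lower than in both 0 h libraries at 48, 72 and 96 h, and 0 higher, where 27.9%, 29.9% and 19.1% of all coding gene promoters ranked lower and 17.4%, 17.2% and 15% higher. Of 6 Kupffer cell markers 0 or 1 had a listed promoter, of 6 endothelial markers 3 or 4, of 6 stellate markers 2 to 5, of 5 biliary markers 2 to 4, and of 4 lymphocyte markers 0 in every library. Promoters listed in all 8 libraries were those of Pecam1, Kdr and Clec4g (endothelial), Reln and Lrat (stellate), and Epcam and Sox9 (biliary). Stab2, Lyve1 and Krt19 were at 0 throughout. At 0 h Clec4g ranked 19383 and 13362, Reln 5347 and 23627, and Epcam 3903 and 29081. At 48 h 2 of 5 tested stellate promoters ranked higher and 0 lower, 1 and 1 of 4 endothelial ones, and 0 and 1 of 3 biliary ones. At 72 h the same counts were 0 and 0 of 5, 0 and 1 of 4, and 0 and 1 of 4, and at 96 h they were 2 and 0 of 4, 0 and 1 of 4, and 0 and 0 of 4. The part of these values in the results below was not tested. In a bulk assay fewer cells of a type and less open chromatin per cell cannot be told apart.

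At 48 h more regions of the axis ranked lower than higher. Both 48 h libraries ranked lower than both 0 h libraries in 56 of the 143 member regions that were listed in at least 2 of the 4 libraries (39.2%), and higher in 14 (9.79%). Over all 104036 such regions the same rule found 24% lower and 17.9% higher. At 72 h 35 of 159 member regions ranked lower (22%, against 18.9% of all regions) and 21 ranked higher (13.2%, against 22.8%). At 96 h 42 of 162 ranked lower (25.9%, against 18.5%) and 21 ranked higher (13%, against 17.1%). A region listed in both libraries of one group and in neither of the other is called by that alone, which was so for 15 of the 56 lower and 3 of the 14 higher at 48 h. In regions listed in all 4 libraries compared, a filter added after the data were seen, 29 of 76 members were lower at 48 h (38.2%, against 23.8% of all) and 7 higher (9.21%, against 19.6%), 24 of 92 lower at 72 h (26.1%, against 23.5%), and 23 of 84 lower at 96 h (27.4%, against 19.8%). All 3 time points were set against the same pair of 0 h libraries. The 2-against-2 layout cannot give a two-sided exact permutation p below 0.333, so no region has a p of its own from ranks. When ranks were replaced by percentiles of each library's own list length, the split moved to 42 lower and 19 higher at 48 h (29.4% against 18.6% of all regions lower, 13.3% against 21.2% higher), to 13 lower and 38 higher at 72 h (8.18% against 8.8%, 23.9% against 36%) and to 27 lower and 34 higher at 96 h (16.7% against 11.1%, 21% against 24.2%). The larger share of lower-ranked member regions than of all regions was thus present with ranks and percentiles at 48 and 96 h, and at 72 h only with ranks. With ranks of fold enrichment it varied by gene in the distal part. At 48 h (all regions 23% lower) Ghr had 12 of 37 lower, Igf1 6 of 15 and Stat5b 7 of 15. Stat5a had 3 of 10, Igfbp1 2 of 8, Igfbp2 2 of 9, Igfbp4 2 of 12 and Igfals 1 of 10. Socs2 had 0 of 6 and Cish 0 of 7. At 96 h (all regions 18.6%) these counts were, in the same order, 10 of 46, 4 of 15 and 4 of 18. Then came 3 of 9, 0 of 9, 0 of 12, 4 of 11, 5 of 12, 0 of 7 and 1 of 9. Leaving out a library in turn, which compares 1 library with 2, gave 57 to 73 lower and 24 to 29 higher at 48 h (all regions 34.8% to 43.1% and 28% to 34.3%), 49 to 62 lower and 34 to 45 higher at 72 h (34.5% to 36.4% and 32.6% to 41.7%), and 53 to 64 lower and 34 to 41 higher at 96 h (33.1% to 40.2% and 27.7% to 34.6%).

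**Figure D1:**
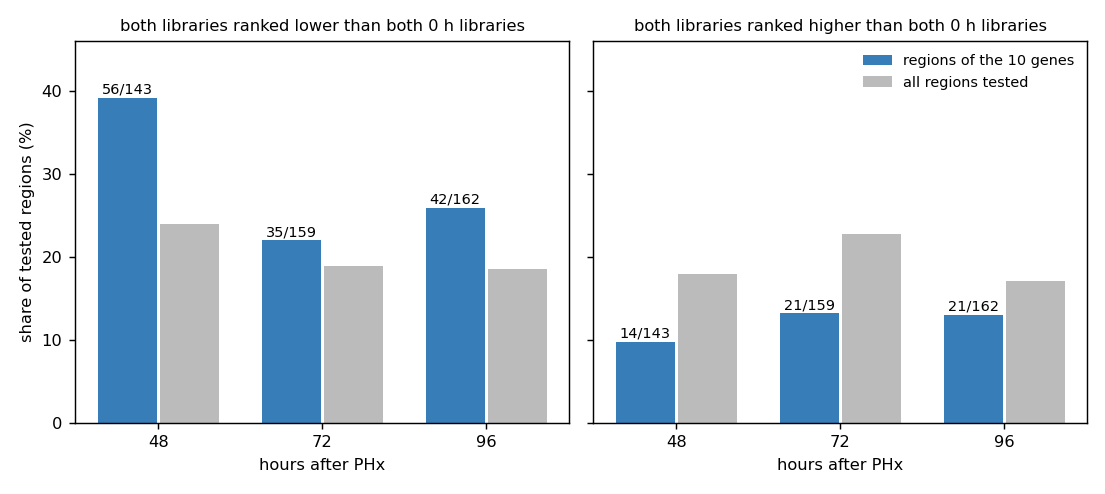
Share of tested regions (percent, vertical axis) in which both libraries of a time point ranked lower (left) or higher (right) than both 0 h libraries, at 48, 72 and 96 h after PHx; blue bars are the regions of the 10 genes with their counts, gray bars all regions tested. At 48 h 56 of 143 member regions ranked lower, 39.2% against 24% of all regions.

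Equal numbers of intervals gave few outright gains or losses. Among the 50000 strongest intervals of each library, 2 member regions were present in both 48 h libraries and in neither 0 h library, and 3 the reverse, of 64 regions present in at least 2 of the 4 libraries (background 3.73% gained and 4.9% lost). At 72 h 0 were gained and 3 lost of 65 (background 4.04% and 3.82%), and at 96 h 0 were gained and 5 lost of 63 (background 3.14% and 3.39%). Across all 3 time points 20 of 206 member regions ranked lower in each of the 6 PHx libraries than in both 0 h libraries (9.71%, background 4.8%), and 1 ranked higher in all of them (0.485%, background 2.35%). With percentiles these counts were 8 lower (background 2.14%) and 4 higher (background 4.04%), and with ranks of fold enrichment 13 lower (background 4.61%) and 4 higher (background 1.94%), the latter the same share as that of all regions.

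Fold enrichment was tested with limma in the 57473 regions listed in all 8 libraries, which include 68 member regions. At an adjusted p under 0.05, 0 regions were called in any contrast, over all regions (0%) as among the members. Of the 68 member regions, 5 were higher and 3 lower at 48 h at an unadjusted p under 0.05 (background 4.93% and 5.21%), 0 and 2 at 72 h (background 3.73% and 2.52%), 1 and 2 at 96 h (background 3.06% and 2.6%), and 2 and 3 in the mean of the 3 PHx time points (background 4.46% and 3.35%). Between time points after PHx, 3 were higher and 2 lower at 72 than at 48 h (background 4.25% and 2.98%), 3 and 2 at 96 than at 48 h (background 4% and 3.39%), and 0 and 2 at 96 than at 72 h (background 1.71% and 2.09%). The median log2 difference of the members was −0.058 at 48 h, 0.023 at 72 h and −0.0047 at 96 h, beside 0.0026, −0.016 and −0.0047 over all fitted regions. In simulated libraries set up like the 48 h comparison a log2 change of 1 was recovered in 24% of altered regions and one of 1.5 in 83.5%, so that changes under 2-fold were mostly not detectable here. Every log2 difference below is from this fit, with its standard error (SE).

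**Figure D2:**
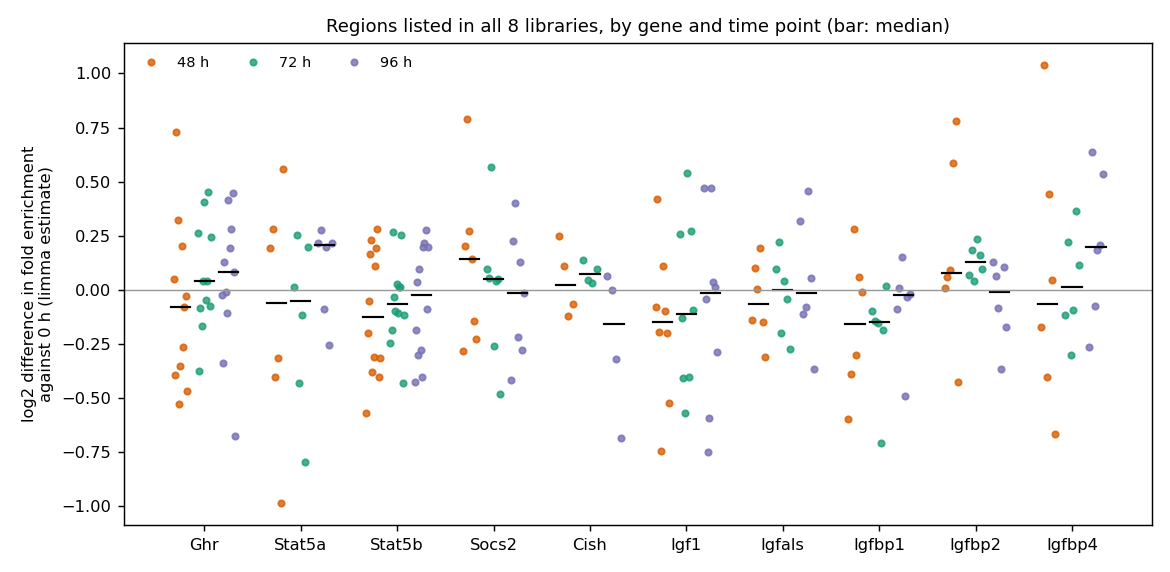
Log2 difference in fold enrichment against 0 h (vertical axis, limma estimate) of the 68 member regions listed in all 8 libraries, grouped by gene, with 48 h in orange, 72 h in green and 96 h in purple and black bars for medians; regions shared by Stat5a and Stat5b appear under both. The points of every gene lie on both sides of 0 at 48 h, with the extremes at 1.04 (before Igfbp4) and −0.98 (beside Stat5a).

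The receptor gene Ghr (ENSMUSG00000055737.12, chr15:3317760-3583492, minus strand) held 121 of the regions, 117 of them distal, in a gene of 265.7 kb. The number of listed intervals in its window was 57 and 42 (0 h), 27 and 37 (48 h), 53 and 54 (72 h), and 56 and 40 (96 h). Both 48 h libraries thus held fewer than any other library, and 72 and 96 h did not stand apart from 0 h. In its distal part 15 of 37 tested regions ranked lower at 48 h and 2 higher (all regions 24% and 17.9%). Percentiles gave 12 and 3 (all regions 18.6% and 21.2%), and ranks of fold enrichment 12 and 4 (23% and 17.1%). The count over the whole axis did not rest on Ghr: without it 39 of 103 regions ranked lower at 48 h (37.9%) and 12 higher. At 72 h the number ranked higher was 11 of 109 without Ghr (10.1%), since 10 of the 21 were its own.

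The strongest Ghr promoter region overlapped 0 h at all 3 times when ranked. Its interval ranked 18539 and 13186 (0 h), 21631 and 15329 (48 h), 19884 and 12998 (72 h), and 12347 and 14379 (96 h). The 4 groups overlapped, and the log2 differences at chr15:3582955-3583682 were −0.027 at 48 h, −0.072 at 72 h and 0.082 at 96 h (SE 0.284 each). With percentiles it was higher at 96 h. A pair of weaker Ghr promoter regions ranked lower at 48 h on all 3 scales. The region at chr15:3581889-3582504 ranked 76127 and 46572 (0 h) and 109565 and 112966 (48 h), and the one at chr15:3471504-3471778 ranked 51543 and 60637 (0 h) and was listed in 0 of the 2 libraries at 48 h.

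The strongest distal Ghr region behaved differently at 48 h. This intronic region at chr15:3464578-3465850 ranked 7616 and 9587 (0 h), 29357 and 28667 (48 h), 8606 and 7805 (72 h), and 16505 and 9158 (96 h). Both 48 h libraries stood well below the other 6, whose values overlapped. The log2 difference at 48 h was −0.53 (SE 0.258, limma adjusted p = 0.504). Between 72 and 48 h it was 0.57 (SE 0.258, limma adjusted p = 0.666). A region in another intron at chr15:3441594-3442110 ranked 33134 and 61223 (0 h), 20260 and 33639 (48 h), 50401 and 50622 (72 h), and 39727 and 48826 (96 h). Its 48 h ranks overlapped those of 0 h by a narrow margin, though with percentiles and with ranks of fold enrichment 48 h was higher, and its log2 difference at 48 h was 0.73 (SE 0.314, limma adjusted p = 0.442). Next to its summit lies a match to the CTCF pattern, the letters bound by the chromatin boundary factor.

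A pair of other Ghr introns lost their place among the 50000 strongest intervals. The region at chr15:3380319-3380876 ranked 32452 and 46823 (0 h), 76120 and 48942 (48 h), 55840 and 56931 (72 h), and 48503 and 72596 (96 h). All 6 PHx libraries ranked it lower, a call that was kept neither with percentiles nor with ranks of fold enrichment, and it was lost at 72 h. The region at chr15:3455563-3456023 ranked 46790 and 43021 (0 h) and 59092 in the first 48 h library, was not listed in the second, and ranked 40131 and 71062 (72 h) and 57254 and 57755 (96 h). It was lost at 48 and 96 h. A pair of Ghr windows of 200 bases around a summit, each with a match, is shown to place the letters of these introns beside their ranks. They are chr15:3441616-3441815, with the CTCF match in capitals, and chr15:3380381-3380580, with a C/EBP match (a pattern of a hepatocyte transcription factor family) in capitals, both from the plus strand of GRCm38/mm10.
Ghr intron with CTCF match: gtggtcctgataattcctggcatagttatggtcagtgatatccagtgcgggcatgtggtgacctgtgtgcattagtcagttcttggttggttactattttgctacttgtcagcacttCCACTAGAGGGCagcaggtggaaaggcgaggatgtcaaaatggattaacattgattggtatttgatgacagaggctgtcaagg
Ghr intron with C/EBP match: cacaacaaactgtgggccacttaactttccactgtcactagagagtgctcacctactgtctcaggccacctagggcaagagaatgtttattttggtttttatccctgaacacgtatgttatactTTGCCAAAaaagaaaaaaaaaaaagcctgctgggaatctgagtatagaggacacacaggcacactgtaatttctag

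The transducers Stat5a (ENSMUSG00000004043.14, chr11:100859351-100885169, plus strand) and Stat5b (ENSMUSG00000020919.11, chr11:100780731-100850724, minus strand) lie head to head. Stat5b is the form that predominates in hepatocytes. The Stat5b promoter ranked 8178 and 12685 (0 h), 14132 and 5326 (48 h), 4268 and 20951 (72 h), and 8014 and 6202 (96 h). The replicates of 48 and 72 h lay farther apart than the groups, and only at 96 h did both libraries rank above both 0 h libraries, a call kept with percentiles and lost with ranks of fold enrichment. The Stat5a promoter ranked 13314 and 4222 (0 h), 23887 and 13537 (48 h), 15210 and 21036 (72 h), and 10115 and 8747 (96 h). It ranked lower at 48 and 72 h, at 48 h by a margin of 13314 to 13537 that was lost with percentiles. At 96 h its ranks fell between those of 0 h. The log2 difference at chr11:100860074-100860957 was −0.40 at 48 h (SE 0.269, limma adjusted p = 0.648) and −0.12 without the second 0 h library. At the first start of Stat5a, chr11:100859225-100859749, the ranks were 38208 and 34609 (0 h), 36195 and 22742 (48 h), 28366 and 28313 (72 h), and 28343 and 27967 (96 h). This region ranked higher at 72 and 96 h, at 72 h opposite to the stronger one, with log2 differences of 0.25 and 0.28 (SE 0.299 each), and with ranks of fold enrichment also at 48 h. Further inside Stat5b, a second promoter region at chr11:100822297-100822983 ranked 28081 and 16033 (0 h), 42892 and 38656 (48 h), 21421 and 25371 (72 h), and 33766 and 35896 (96 h). This second region was lower at 48 and 96 h on all 3 scales, at 96 h opposite to the stronger promoter. Its log2 difference was −0.38 at 48 h (SE 0.281, limma adjusted p = 0.690) and −0.28 at 96 h (SE 0.281). A weak region beside it, at chr11:100821641-100822001, ranked 71926 and 61858 (0 h) and was listed after PHx in 1 library only, at rank 105739 (96 h), and so was lower in all 6 PHx libraries on all 3 scales.

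Beyond the end of Stat5a a pair of regions inside the neighboring Stat3 gene moved in opposite directions. The region at chr11:100886072-100886789, in an untranslated part of Stat3, ranked 21511 and 9536 (0 h), 52957 and 45318 (48 h), 31574 and 38685 (72 h), and 23076 and 22620 (96 h). Its rank was lowest at 48 h and approached that of 0 h at 96 h, where the lower call was lost on both other scales. The log2 difference was −0.98 at 48 h (SE 0.326, limma adjusted p = 0.338) and −0.79 at 72 h (SE 0.326, limma adjusted p = 0.731). Without the second 0 h library it was −0.63 at 48 h and −0.45 at 72 h, and without the first it was −1.32 at 48 h. The region at chr11:100893309-100894103, in a Stat3 intron, ranked 40579 and 36430 (0 h), 18386 and 9376 (48 h), 22381 and 23761 (72 h), and 27358 and 23680 (96 h). It was the 1 member region that ranked higher in all 6 PHx libraries, with ranks, percentiles and ranks of fold enrichment alike. The smallest two-sided exact permutation p that 2 against 6 libraries allow is 0.0714. Its log2 difference was 0.56 at 48 h (SE 0.257, limma adjusted p = 0.472), 0.20 at 72 h and 0.22 at 96 h. Both regions lie in the gene for STAT3, the transducer of interleukin-6 signals, and belong to the axis by position only.

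A Stat5b intron held a STAT match 10 bases from its summit. This region at chr11:100841974-100842599 ranked 46839 and 49606 (0 h), was not listed in the first 48 h library and ranked 65952 in the second, 41001 and 57212 (72 h), and 62591 and 77932 (96 h). It was lost at 48 and 96 h. Another Stat5b intron at chr11:100814499-100814986 ranked 35262 and 48875 (0 h) and 51376 and 65684 (96 h) and was lost at 96 h. The window chr11:100842185-100842384 is shown from the plus strand for its match to TTCNNNGAA, in capitals, inside the gene of a STAT.
Stat5b intron with STAT match: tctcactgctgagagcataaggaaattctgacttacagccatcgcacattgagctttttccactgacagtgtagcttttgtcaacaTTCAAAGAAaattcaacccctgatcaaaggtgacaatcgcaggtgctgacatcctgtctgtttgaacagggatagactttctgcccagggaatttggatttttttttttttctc

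Of the feedback genes, Socs2 (ENSMUSG00000020027.18, chr10:95385362-95417180, minus strand), which restrains GH signaling at the receptor, was the member whose promoter ranked higher at 48 h. Its strongest promoter interval, which came from different promoter regions in different libraries, ranked 25339 and 30172 (0 h), 15836 and 13070 (48 h), 14953 and 20320 (72 h), and 19786 and 33273 (96 h). Both libraries of 48 and of 72 h were above both of 0 h, and those of 96 h lay on either side. Socs2 has several start sites, and its promoter regions did not move alike. The region at chr10:95414292-95414920, just inside the gene, ranked 25339 and 52449 (0 h) and 16668 and 13070 (48 h), with a log2 difference of 0.79 (SE 0.307, limma adjusted p = 0.397). The region at chr10:95416453-95417787, around the most upstream start, ranked 25693 and 30172 (0 h), 42041 and 39438 (72 h), and 43642 and 41816 (96 h). It ranked lower at those times, of which 72 h was lost with percentiles, while its ranks at 48 h, 15836 and 32880, overlapped those of 0 h. The strongest distal region, in a Socs2 intron at chr10:95408434-95409362, ranked 16408 and 13005 (0 h), 6867 and 9631 (48 h), 8868 and 13560 (72 h), and 10051 and 8452 (96 h). It ranked higher at 48 and 96 h, and with percentiles at 72 h too. Both calls were lost with ranks of fold enrichment, and its fold enrichment differed little, by 0.20 at 48 h (SE 0.213, limma adjusted p = 0.798) and by −0.029 without the first 0 h library. Among distal Socs2 regions 1 of 6 ranked higher at 48 h and 0 lower, beside 17.9% and 24% of all regions.

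Cish (ENSMUSG00000032578.7, chr9:107296026-107302784, plus strand) encodes CIS, another STAT5 target that blocks the receptor. Its promoter ranked 32389 and 20754 (0 h), 28100 and 32019 (48 h), 23713 and 28052 (72 h), and 34423 and 27862 (96 h). The groups overlapped at each time when ranked, though with percentiles 72 h was higher, and the log2 difference at chr9:107295739-107297555 was 0.11 at 48 h, 0.047 at 72 h and −0.00069 at 96 h (SE 0.312 each). A pair of STAT matches stands in tandem at the summit of this promoter, at chr9:107296764-107296772 and chr9:107296781-107296789. The 30 bases that hold them, chr9:107296762-107296791, lie in the 5′ untranslated part of the first exon and are shown from the plus strand with both matches in capitals.
Cish promoter with tandem STAT matches: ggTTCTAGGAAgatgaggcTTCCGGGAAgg

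The strongest region in the Cish window was the promoter of Mapkapk3 at chr9:107288783-107290066, which ranked 3774 and 10858 (0 h), 3282 and 3595 (48 h), 7119 and 2205 (72 h), and 8518 and 3452 (96 h). It ranked higher at 48 h by a margin of 3774 to 3595. An intergenic region 19309 bp from the nearest Cish start, at chr9:107315531-107316343, ranked 22040 and 22606 (0 h), 19137 and 25382 (48 h), 18698 and 16874 (72 h), and 35749 and 51740 (96 h). Both 72 h libraries were above and both 96 h libraries below those of 0 h. The log2 difference at 96 h was −0.69 (SE 0.256, limma adjusted p = 0.816), −0.41 without the second 96 h library and −0.96 without the first.

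**Figure D3:**
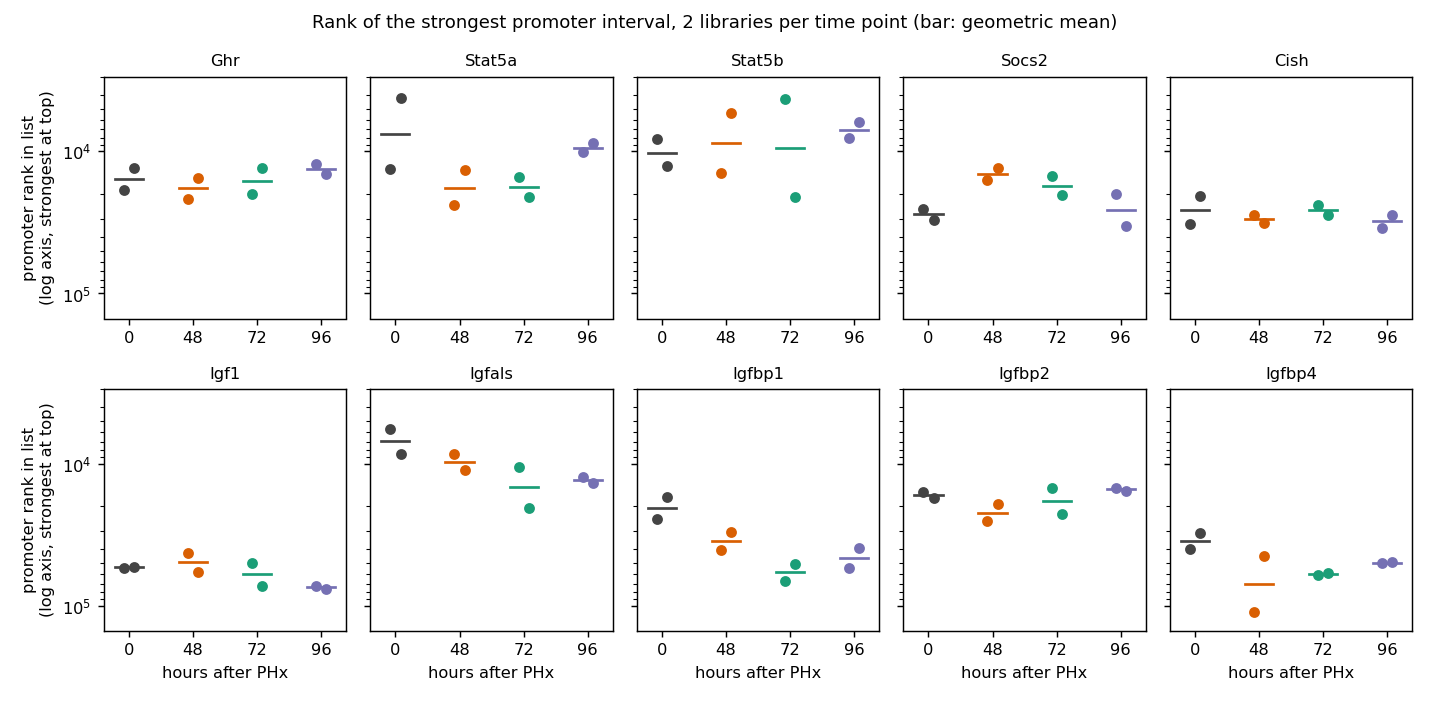
Rank of the strongest promoter interval of each of the 10 genes, chosen in each library separately (vertical log axis, strongest at the top), in the 2 libraries (points) of each time point (hours after PHx, horizontal axis), with bars for the geometric mean. The Igfbp1 and Igfbp4 promoters lie lower in all 6 PHx libraries than in both 0 h libraries, and the Socs2 promoter lies higher at 48 and 72 h.

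The hormone gene Igf1 (ENSMUSG00000020053.18, chr10:87858265-87937042, plus strand) was followed at its promoter and in its introns. The strongest promoter interval, which came from different promoter regions in different libraries, ranked 53861 and 53465 (0 h), 42453 and 57558 (48 h), 49968 and 72457 (72 h), and 72425 and 75698 (96 h). It ranked lower at 96 h and overlapped 0 h at the earlier times, whereas with percentiles it was higher at 48 h and overlapped 0 h at 96 h. The log2 difference at the region upstream of the first start site, chr10:87857607-87858351, was 0.42 at 48 h (SE 0.317, limma adjusted p = 0.699) and −0.043 at 96 h, and with ranks of fold enrichment this region was higher at 48 h and lower at 96 h. In the distal part 9 of 15 tested regions ranked lower at 48 h and 1 higher, 6 of 16 and 0 at 72 h, and 5 of 15 and 2 at 96 h. Over all regions the shares lower and higher were 24% and 17.9%, 18.9% and 22.8%, and 18.5% and 17.1%. In the same order of time, percentiles gave 7 and 1 (all regions 18.6% and 21.2%), 2 and 2 (8.8% and 36%), and 4 and 2 (11.1% and 24.2%). Ranks of fold enrichment gave 6 and 1 (all regions 23% and 17.1%), 3 and 1 (19.2% and 20.9%), and 4 and 3 (18.6% and 15.6%). The number of intervals in the Igf1 window was similar in all libraries, between 17 and 23.

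The intronic region 36.4 kb from the first base of Igf1, at chr10:87894382-87895085, was lower at each time on all 3 scales. It ranked 33877 and 18628 (0 h), 67341 and 59646 (48 h), 59957 and 47808 (72 h), and 56242 and 58150 (96 h). All 6 PHx libraries lay below both 0 h libraries, and the region was lost from the 50000 strongest at 48 and 96 h. The log2 difference was −0.74 at 48 h (SE 0.328, limma adjusted p = 0.453) and −0.64 over all PHx time points (SE 0.268, limma adjusted p = 0.573). The second 0 h library carried much of it: without that library the difference at 48 h was −0.28, and without the first it was −1.2.

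A second intronic region 27.6 kb from the first base, at chr10:87884992-87886196, ranked 30293 and 19250 (0 h), 32112 and 38294 (48 h), 37996 and 35590 (72 h), and 53365 and 63709 (96 h). Its ranks were lowest at 96 h, where it was lost, and all 6 PHx libraries lay below 0 h, a call that was kept neither with percentiles nor with ranks of fold enrichment, while 96 h was lower on all 3 scales. The log2 difference was −0.19 at 48 h (SE 0.341) and −0.75 at 96 h (SE 0.341, limma adjusted p = 0.873). Without the second 0 h library these were 0.31 and −0.24. The strongest distal region, 48.7 kb from the first base at chr10:87906037-87907249, ranked 24792 and 22153 (0 h), 42080 and 33691 (48 h), 43339 and 51591 (72 h), and 36517 and 22354 (96 h). At 48 and 72 h it was lower, and it reached the 0 h range in 1 library of 96 h. Both calls were lost with ranks of fold enrichment, and its fold enrichment differed by −0.10 at 48 h and by −0.40 at 72 h (SE 0.319, limma adjusted p = 0.948 and 0.906). A further intronic region, 68.9 kb from the first base, ranked 21786 and 34524 (0 h), 72554 and 46453 (48 h), 40784 and 44086 (72 h), and 59975 and 32890 (96 h). By rank it was lower at 48 and 72 h, and the 72 h call was lost with percentiles. Its log2 difference was −0.52 at 48 h and −0.095 at 72 h (SE 0.322, limma adjusted p = 0.617 and 0.987).

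The windows at these 3 introns are shown because they ranked lower than 0 h at 48 and 72 h and hold matches to STAT or C/EBP patterns. They are chr10:87885742-87885941 and chr10:87906824-87907023, each with a STAT match in capitals, and chr10:87894524-87894723, with a pair of C/EBP matches in capitals, from the plus strand of GRCm38/mm10, the direction of Igf1 transcription.
Igf1 intron at 27.6 kb: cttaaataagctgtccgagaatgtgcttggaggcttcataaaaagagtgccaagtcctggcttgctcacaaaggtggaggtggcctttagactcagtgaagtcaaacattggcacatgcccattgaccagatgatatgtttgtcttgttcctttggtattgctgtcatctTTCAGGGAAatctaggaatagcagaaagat
Igf1 intron at 36.4 kb: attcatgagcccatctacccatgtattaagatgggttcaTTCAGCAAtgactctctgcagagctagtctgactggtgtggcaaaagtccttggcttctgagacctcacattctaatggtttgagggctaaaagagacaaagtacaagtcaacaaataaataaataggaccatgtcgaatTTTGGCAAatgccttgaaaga
Igf1 intron at 48.7 kb: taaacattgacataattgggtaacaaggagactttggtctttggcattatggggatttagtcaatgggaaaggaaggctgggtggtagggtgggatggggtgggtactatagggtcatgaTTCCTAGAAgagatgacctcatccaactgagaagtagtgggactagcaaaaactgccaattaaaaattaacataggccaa

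**Figure D4:**
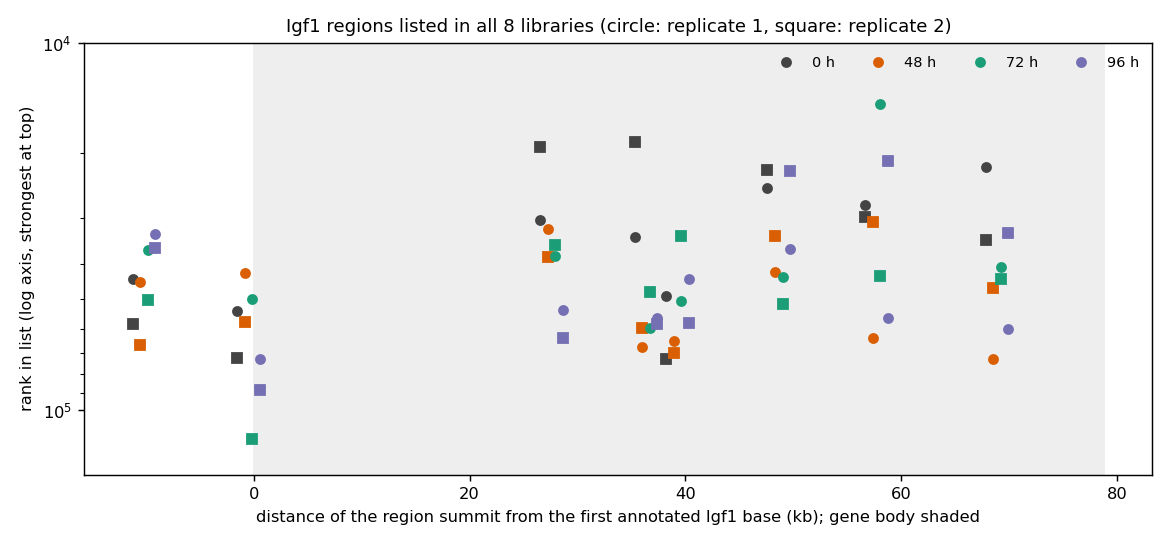
Rank (vertical log axis, strongest at the top) of the 8 Igf1 regions listed in all libraries, by distance of the summit from the first annotated base (kb, horizontal axis, gene body shaded); colors mark time points, circles and squares replicates 1 and 2, and points of a region are spread sideways by time. In the introns at 27.6 and 36.4 kb both 0 h libraries lie above all 6 PHx libraries.

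Igfals (ENSMUSG00000046070.9, chr17:24865997-24882010, plus strand) encodes the acid-labile subunit, a product of hepatocytes. Its promoter ranked 5657 and 8575 (0 h), 8481 and 11039 (48 h), 10515 and 20509 (72 h), and 12505 and 13780 (96 h). Ranks were lower at 72 and 96 h, of which 96 h was kept with percentiles, and at 48 h they overlapped 0 h. Neither call was kept with ranks of fold enrichment, and the log2 differences at chr17:24877215-24878875 were 0.0047, −0.20 and −0.080 at 48, 72 and 96 h (SE 0.288 each). The strongest distal region, at chr17:24849717-24850940, is the shared promoter of Fahd1 and Hagh and ranked 4363 and 4247 (0 h), 17049 and 7297 (48 h), 5114 and 5994 (72 h), and 4347 and 2991 (96 h). It ranked lower at 48 and 72 h. With percentiles the 72 h call was lost, and with ranks of fold enrichment the 48 h call was lost and the region was higher at 72 h, with a log2 difference of 0.096 (SE 0.244). On both of these scales it was higher at 96 h. Among distal Igfals regions 4 of 10 ranked lower at 48 h and 0 higher (all regions 24% and 17.9%), and 2 were lower with percentiles (all regions 18.6%) and 1 with ranks of fold enrichment (23%). The Igfals promoter window chr17:24877417-24877616 ends in a STAT match, shown in capitals from the plus strand, and is printed since Igfals is a known target of STAT5.
Igfals promoter with STAT match: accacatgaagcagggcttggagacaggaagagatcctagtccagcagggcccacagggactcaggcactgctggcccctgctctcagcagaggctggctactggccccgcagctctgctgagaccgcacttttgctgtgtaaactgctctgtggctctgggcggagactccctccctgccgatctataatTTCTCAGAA

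Among the binding proteins, Igfbp1 (ENSMUSG00000020429.7, chr11:7197782-7202546, plus strand) was, with Igfbp4, 1 of 2 among the 10 members whose strongest promoter interval ranked lower in every PHx library (background 7.07%). It ranked 24474 and 17222 (0 h), 40503 and 30315 (48 h), 67031 and 50433 (72 h), and 53901 and 38983 (96 h). All 6 PHx libraries lay below both 0 h libraries, with ranks, percentiles and ranks of fold enrichment alike. Fold enrichment over background at this promoter was 3.77 and 4.97 (0 h), 2.88 and 3.18 (48 h), 2.06 and 3.14 (72 h), and 2.32 and 3.46 (96 h). The log2 difference at chr11:7197511-7198339 was −0.30 at 48 h (SE 0.292, limma adjusted p = 0.777), −0.71 at 72 h (SE 0.292, limma adjusted p = 0.733) and −0.49 at 96 h (SE 0.292, limma adjusted p = 0.918). At 48 and 96 h it was −0.076 and −0.27 without the second 0 h library, at 72 h −0.41 without the first 72 h library, and at 96 h −0.19 without the first 96 h library. The promoter was lost from the 50000 strongest intervals at 72 h. The strongest distal Igfbp1 region, at chr11:7202247-7204771, ranked 16439 and 17288 (0 h), 10025 and 17920 (48 h), 9960 and 27449 (72 h), and 11829 and 19370 (96 h), so that its groups overlapped at each time, though with percentiles 48 h was higher.

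The bases before the Igfbp1 start, chr11:7197587-7197781 on the plus strand, are shown for the sequence CAAAACAA, the core of the element through which insulin and FOXO factors are known to act on this gene. The match, in capitals, starts 108 bases before the RefSeq start. It occurs on either strand in 2.21% of 32851 RefSeq promoter windows of 250 bases, and of the 9 members in that table Igfbp1 alone has it.
Igfbp1 promoter: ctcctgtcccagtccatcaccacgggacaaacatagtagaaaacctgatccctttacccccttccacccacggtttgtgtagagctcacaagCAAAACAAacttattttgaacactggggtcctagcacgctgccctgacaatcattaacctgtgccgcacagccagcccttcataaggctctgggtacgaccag

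Igfbp4 (ENSMUSG00000017493.12, chr11:99041244-99054392, plus strand), a binding protein that restrains IGF action, showed opposite movements within a short distance. Its promoter ranked 39969 and 30685 (0 h), 110108 and 44704 (48 h), 61078 and 59015 (72 h), and 49813 and 49438 (96 h). All 6 PHx libraries were below both 0 h libraries with ranks and with percentiles, and it was lost at 72 h. With ranks of fold enrichment it was lower at 72 and 96 h only, and the first 48 h library decided the size at 48 h: the log2 difference at chr11:99040977-99041718 was −0.40 (SE 0.295, limma adjusted p = 0.689), 0.062 without that library and −0.88 without the second. The region upstream of the start, at chr11:99039808-99040218, ranked 67204 and 52921 (0 h), 35601 and 18423 (48 h), 60576 and 51073 (72 h), and 26438 and 51994 (96 h). It was gained at 48 h, and both libraries of 48 h and of 96 h ranked above 0 h, at 96 h by a margin of 52921 to 51994. With percentiles 72 h was higher as well. The log2 difference at 48 h was 1.04 (SE 0.301, limma adjusted p = 0.296), the smallest p of any member against 0 h. At 96 h it was 0.64 (SE 0.301, limma adjusted p = 0.877). From 48 to 72 h it was −0.82 (SE 0.301, limma adjusted p = 0.591). The strongest distal region, in an Igfbp4 intron at chr11:99045230-99045990, ranked 16053 and 9796 (0 h), 9606 and 13959 (48 h), 21756 and 22912 (72 h), and 17190 and 17509 (96 h). Both later time points were below 0 h, with log2 differences of −0.091 and 0.18 (SE 0.305 each). The 72 h call was kept on all 3 scales, the 96 h call was lost on both others, and with ranks of fold enrichment the region was higher at 48 h. On the far side of the gene, the region at chr11:99065788-99066365, in an untranslated exon of Tns4, ranked 60949 and 30415 (0 h), 97962 and 78711 (48 h), 41982 and 39161 (72 h), and 23793 and 36333 (96 h). Both 48 h libraries alone were below 0 h, with a log2 difference of −0.67 (SE 0.312, limma adjusted p = 0.480) that was −0.35 without the second 0 h library, and its difference between 96 and 48 h was 1.201 (SE 0.312, limma adjusted p = 0.411). With percentiles and with ranks of fold enrichment it was higher than 0 h at 96 h.

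Igfbp2 (ENSMUSG00000039323.18, chr1:72824503-72852474, plus strand), the other binding protein made in quantity by liver, differed little. Its promoter ranked 15831 and 17407 (0 h), 25474 and 19305 (48 h), 14803 and 22618 (72 h), and 14729 and 15650 (96 h). It ranked lower at 48 h and higher at 96 h. The lower rank was lost with percentiles and with ranks of fold enrichment, and with the latter the 96 h call was lost too and the region was higher at 72 h. The log2 differences at chr1:72824401-72825149 were 0.059, 0.18 and 0.064 (SE 0.297 each). The strongest distal region, upstream at chr1:72809164-72810657, ranked 5894 and 2804 (0 h), 2166 and 11937 (48 h), 4546 and 8162 (72 h), and 3164 and 6219 (96 h), with full overlap of the groups. An intron of the neighboring Igfbp5 held the second region gained at 48 h. At chr1:72865828-72866239 it ranked 58010 and 66196 (0 h), 32742 and 41972 (48 h), 57423 and 63347 (72 h), and 37037 and 103216 (96 h). Its log2 difference at 48 h was 0.78 (SE 0.339, limma adjusted p = 0.444). A region after the end of Igfbp2, at chr1:72853071-72855252, with a STAT match 9 bases from its summit, ranked 11991 and 38705 (0 h), 23557 and 11812 (48 h), 32756 and 15416 (72 h), and 25970 and 41677 (96 h), and its replicates differed as much as its groups. The windows chr1:72865889-72866088, with a CTCF match in capitals, and chr1:72854728-72854927, with a STAT match in capitals, are shown from the plus strand, the first as a region gained at 48 h.
Igfbp5 intron with CTCF match: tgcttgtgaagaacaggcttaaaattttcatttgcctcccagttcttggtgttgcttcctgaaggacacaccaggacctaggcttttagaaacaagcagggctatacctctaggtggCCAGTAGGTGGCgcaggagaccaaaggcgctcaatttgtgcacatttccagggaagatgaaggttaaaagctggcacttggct
Igfbp2 downstream region with STAT match: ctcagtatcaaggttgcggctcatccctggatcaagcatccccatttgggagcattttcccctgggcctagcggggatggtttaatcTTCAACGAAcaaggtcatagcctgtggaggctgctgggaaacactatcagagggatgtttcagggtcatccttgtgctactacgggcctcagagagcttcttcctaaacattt

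**Figure D5:**
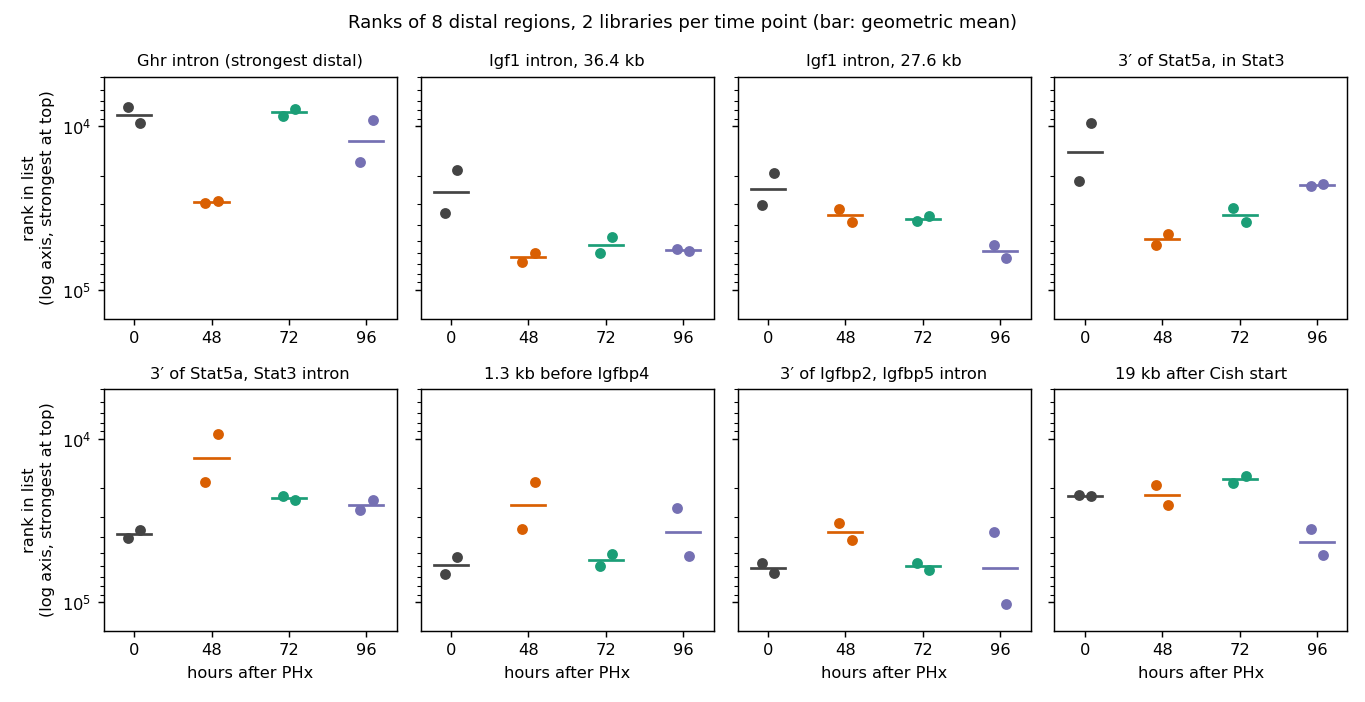
Rank (vertical log axis, strongest at the top) of 8 distal regions in the 2 libraries (points) of each time point (hours after PHx, horizontal axis), with bars for the geometric mean. The strongest Ghr intron dips at 48 h alone, the Igf1 introns at 27.6 and 36.4 kb stay below 0 h at all 3 times, and the regions before Igfbp4 and in the Igfbp5 intron enter the 50000 strongest at 48 h.

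Motif shares of the members are given beside those of all regions, without a test. The STAT pattern TTCNNNGAA, which reads the same on both strands, occurred within 100 bases of the strongest summit in 23 of 316 member regions (7.28%) and in 5.53% of all regions. Among regions listed in all 8 libraries the counts were 8 of 68 (11.8%) and 5.25%. The C/EBP pattern TTGCNNAA, on either strand, was in 38 member regions (12.0%, against 9.86% of all) and in 13 of the 68 (19.1%, against 12.7%). The CTCF pattern was in 9 (2.85%, against 5.29%), the AP-1 pattern TGANTCA in 21 (6.65%, against 7.48%), the FOX pattern TGTTTAC in 12 (3.797%, against 3.635%) and the HNF4 pattern CAAAGTCCA in 1 (0.317%, against 0.783%). Among the 68 these 4 patterns were in 5 (7.35%, against 11.05%), 5 (7.35%, against 7.50%), 2 (2.94%, against 4.76%) and 0 (against 1.415%). Matches of different patterns were counted separately where they overlapped. A match describes letters in a window and is no measure of binding.

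Of the wider pathway, 37 further genes were followed by their promoters. At 48 h 10 of 35 tested promoters ranked lower and 4 higher, beside 27.9% and 17.4% of all coding gene promoters. At 72 h 11 ranked lower and 3 higher (background 29.9% and 17.2%), and at 96 h 8 lower and 5 higher (background 19.1% and 15%). Among the 10 members 4 promoters ranked lower at each time, and 1, 1 and 2 higher at 48, 72 and 96 h. With percentiles 2, 3 and 3 were lower (all coding gene promoters 21.9%, 16% and 11.9%), and 2, 2 and 3 higher (20.6%, 28.3% and 22.9%).

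The promoter of Jak2, the kinase attached to the growth hormone receptor, ranked 187 and 200 (0 h), 66 and 99 (48 h), 48 and 97 (72 h), and 43 and 90 (96 h), and so was among the strongest intervals of every library and higher in all 6 PHx libraries. The promoter of Igfbp7, a low-affinity binding protein, ranked 10877 and 11650 (0 h), 4311 and 2179 (48 h), 9246 and 5215 (72 h), and 3557 and 7152 (96 h), again above 0 h in all 6. On the other side stood Insr, the insulin receptor, with ranks of 7154 and 4994 (0 h), 10985 and 15812 (48 h), 7280 and 13752 (72 h), and 8065 and 8741 (96 h). Pik3cb, a catalytic subunit of phosphoinositide 3-kinase, ranked 2361 and 1485 (0 h), 6607 and 2606 (48 h), 4235 and 6059 (72 h), and 3355 and 6408 (96 h). By rank both were lower in all 6 PHx libraries. The margin was 2361 to 2606 for Pik3cb at 48 h and 7154 to 7280 for Insr at 72 h. With percentiles the Insr call was lost. In the first libraries, 7280 of 140311 intervals (72 h) is a smaller share than 7154 of 126773 (0 h). Over all coding gene promoters 4.26% ranked higher and 7.07% lower in every PHx library.

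Other promoters with a large difference at 48 h were Sos1 and Igf2r among the higher and Mtor and Socs7 among the lower. Sos1, an exchange factor for Ras, ranked 26151 and 20556 (0 h) and 15056 and 9739 (48 h). Igf2r, the receptor that clears IGF-2, ranked 53806 and 40370 (0 h) and 28428 and 33560 (48 h). Mtor, the growth kinase, ranked 10170 and 6159 (0 h) and 23430 and 20898 (48 h). Socs7, a further suppressor of cytokine signaling, ranked 3709 and 7534 (0 h) and 14333 and 10476 (48 h). Igf1r and Bcl6 were singled out after their values were seen. The promoter of Igf1r, the IGF-1 receptor, ranked 34259 and 18928 (0 h) and 11294 and 19188 (48 h) and overlapped 0 h at each time. That of Bcl6, a repressor that competes with STAT5, was listed at 0 h, at ranks 47627 and 73970, in 1 library at 72 h, at rank 63283, between those of 0 h, and in 0 of the 2 libraries at 48 h and at 96 h.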

How the data were processed

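Bulk ATAC-Seq of 8 hepatocyte libraries was used as deposited, in 1 peak list per library. According to the study's methods the authors ran the ENCODE ATAC-Seq pipeline, in which trimmed reads were aligned to mm10 with Bowtie2, PCR duplicates were discarded and MACS2 called peaks. Each deposited line holds an interval with its summit, its −log10 p, its fold enrichment over the local background and a score for display, and every library has its own list. The deposited score column was not used for any result. Reads were not counted again, so depth is unknown, no interval for counting error can be given, and the study's own count-based test (TCseq) could not be run. The second 72 h library lacks a sequencing-lane tag that the other 7 share in their deposited names, so lane and library cannot be told apart there.

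Lines that shared an interval were collapsed to the highest −log10 p, and intervals were ranked within each list. Intervals of all 8 lists that overlapped by at least 1 bp were merged into 315767 regions, and each region took its best-ranked interval per library, or the last place where it was not listed. A region counted as ranked higher or lower where both libraries of a time point lay on one side of both 0 h libraries, and was tested where it was listed in at least 2 of the 4. Gains and losses were read among the 50000 strongest intervals, in both libraries of one group and neither of the other. Log2 fold enrichment of the 57473 regions in all 8 lists was quantile-normalized and fitted in limma 3.58.1 (R 4.3.3) with a trended prior over all 4 groups, with Benjamini-Hochberg adjustment over all fitted regions and no covariate. The fit was tested on simulated data with 200 altered regions of 57473. Gene models were GENCODE on GRCm38/mm10, and promoter windows for the CAAAACAA search came from RefSeq. The named regions were the promoter regions, the strongest distal region of each gene by mean rank, the 12 smallest limma p, every gain or loss, and the 3 strongest regions with a STAT match. Of pathway promoters up to 4 per direction were named. The 10 genes, the pathway and marker lists and the rules were chosen with earlier results of these data known. The alternatives were percentiles, ranks of fold enrichment, summit windows, regions in all 8 lists, the 50000 or 25000 strongest intervals, leaving out each library and a replicate block. Python 3.11.15, numpy 2.4.6, pandas 2.3.3 and matplotlib 3.10.9 were used.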

Additional observations from a re-analysis of the deposited data

Results flagged for a closer look

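By rank, a few regions and promoters lay on opposite sides of both 0 h libraries at different time points. With percentiles the 48 h side was lost for the Igfbp2 promoter region. The 72 h side was lost for the region after Igfals, for Cux2 and for Igf2r. The difference between the time points was tested with limma for the regions and was not tested for the promoters of the wider pathway. The Igfbp2 promoter region at chr1:72824401-72825149 ranked lower at 48 h and higher at 96 h, but its fold enrichment differed between them by a log2 of 0.0051 (limma adjusted p = 0.998). The intergenic region upstream of Ghr that starts at 3601650 on chromosome 15 ranked 28583 and 20054 (0 h), 41106 and 34098 (48 h), and 18019 and 18278 (72 h), and differed between 72 and 48 h by a log2 of 0.716 (limma adjusted p = 0.707). The region after Igfals that starts at 24886239 on chromosome 17, which is the promoter of Spsb3 and Nubp2, ranked 6470 and 6549 (0 h), 8327 and 11911 (72 h), and 4473 and 4608 (96 h), with a log2 difference of 0.419 between 96 and 72 h (limma adjusted p = 1).

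Beside Cish, the region that starts at 107307468 on chromosome 9 ranked 34211 and 29115 (0 h), 26508 and 25098 (72 h), and 56197 and 44660 (96 h), with a log2 difference of −0.349 between 96 and 72 h (limma adjusted p = 1). Its neighbor at 107315531 moved the same way, by −0.783 (limma adjusted p = 1). In mean log2 rank, where a negative value is a stronger promoter, Socs3, a suppressor of cytokine signaling, differed by −1.63 between 96 and 48 h, with ranks of 3829 and 2201 (0 h), 4455 and 5191 (48 h), and 1998 and 1201 (96 h). Cux2, a liver transcription factor under sex-dependent GH control, differed by −0.421 between 96 and 72 h, with ranks of 49342 and 51745 (0 h), 60502 and 66878 (72 h), and 46086 and 48996 (96 h). Igf2r differed by 1.06 between 72 and 48 h, with ranks of 57646 and 71974 (72 h).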

How the results depend on the processing

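In regions of all 8 lists only, the members ranked higher and lower were, in order of time, 6 and 25 (8.82% and 36.8%, against 19.7% and 24.2% of all), 7 and 20 (10.3% and 29.4%, against 19.5% and 22.7%), and 8 and 16 (11.8% and 23.5%, against 16.3% and 19.6%), and within the 50000 strongest intervals 6 and 23 (9.38% and 35.9%, against 20.6% and 24.4%), 7 and 19 (10.8% and 29.2%, against 20.9% and 22.5%), and 7 and 17 (11.1% and 27%, against 16.7% and 19.6%), with fewer regions tested. In regions listed in all 4 libraries 7 and 29 were higher and lower at 48 h, 9 were higher at 72 h (9.78%, against 18.3%), and 9 and 23 at 96 h (10.7% higher, against 16%). With percentiles the 72 h counts were 38 and 13 and those of 96 h 34 and 27, and without Ghr 11 were higher at 72 h. Regions gained or lost came to 18, 10 and 20 at 48, 72 and 96 h over all deposited intervals (12.6%, 6.29% and 12.3%, against 8.37%, 9.52% and 7.17% of all), to 8 and 8 at 48 and 72 h in summit windows (11.9% and 11.6%, against 11.1% and 9.3%), and to 5 and 2 at 72 and 96 h among the 25000 strongest (13.9% and 6.06%, against 9.98% and 8.03%). Leaving out 1 library, which makes a call easier by its construction, gave 24 to 29 higher and 57 to 73 lower at 48 h, 34 to 45 and 49 to 62 at 72 h, and 34 to 41 and 53 to 64 at 96 h, with 10 to 18, 8 to 12 and 11 to 16 gained or lost. In each of these settings run at 48 h the share of members ranked lower was above that of all regions. In limma 0 members were called in any setting, and the rank rule over all 6 PHx libraries, added after the data were seen as were the settings without Ghr, without promoters of other genes and in all 4 libraries, called 21. With the replicate number as a block, limma called 0 members in every contrast and 3 of all regions at 48 h. Deviations of same-numbered libraries correlated between −0.055 and 0.12, so the numbers do not pair the libraries. Of the named rank calls 1 turned direction on another scale, that of the Fahd1 and Hagh promoter at 72 h with ranks of fold enrichment. Some log2 differences, none past the threshold, changed sign without 1 library, among them those of the Igfbp4 promoter and the Igf1 intron at 27.6 kb at 48 h. The unknown depth and 2 libraries per group limit all of these values.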

Other observations

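The STAT-matched region after Igfbp2 at chr1:72853071-72855252 was lower at 96 than at 48 h, by −0.95 (SE 0.373, limma adjusted p = 0.595). Member regions were shared between libraries more often than regions at large: 21.5% were in all 8 lists, against 18.2% of all regions, and 34.8% in 1 list only, against 52.5%. Ghr held more regions than 99.53% of coding genes, Igf1 more than 92.31% and Stat5b more than 91.42%, in windows that also grow with gene length.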
